A study of Rattus norvegicus with 30 samples.

Results

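The 37 genes described here are markers of monocytes, macrophages and leukocytes, followed in rat heart after a dose of isoproterenol or vehicle. They were taken by gene symbol from the probe annotation of the array, with every probe set carrying 1 of these symbols. Of the 37, 35 had a named probe set, 41 probe sets in all, and the 35 were all tested beside the rest of the array, which held 12451 named genes on 24292 tested probe sets. The other 2, Spi1 and Msr1, had no probe set named for them here and are not analysed here. Where a gene had several probe sets (6 genes), the probe set with the highest mean level stands for it.

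Total RNA from heart tissue of male Crl:Wi(Han) rats was labelled and hybridised to 30 Affymetrix RAT230_2 arrays. The 12 vehicle arrays comprised 3 each at 1, 3, 24 and 72 h, and the 18 isoproterenol arrays comprised 5, 4, 4 and 5 at the same times. Isoproterenol, a synthetic catecholamine that stimulates beta-adrenergic receptors, was given as the hydrochloride in a single administration. The sample labels give its dose as 0.5 mg/kg/ml, the design text gives 0.5 mg, and that text names 48 h as the last time where the labels give 72 h, so times follow the labels. Neither the age of the rats nor the route is given in the sources used here. Arrays are called biological replicates in the labels without naming animals, so the p-values cover the spread between these arrays, which may be technical if rats were shared.

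Macrophages of the heart include long-lived resident cells, which carry scavenger and mannose receptors such as Cd163 and Mrc1, and cells that descend from circulating monocytes after injury. Both depend on the growth factor receptor Csf1r, and both share the machinery of phagocytes: lysosomal proteins, pattern receptors, Fc receptors that signal through adaptor chains with an immunoreceptor tyrosine-based activation motif (ITAM), and leukocyte integrins. In RNA from whole tissue, fewer cells of a type and less RNA per cell cannot be told apart.

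Values are log2(intensity + 16) after quantile normalization, and a change is the mean of the isoproterenol arrays minus the mean of the vehicle arrays of the same time, with its standard error (SE) and an adjusted p from limma fitted over all tested probe sets. A gene passed where the adjusted p was under 0.05. Adding 16 understates the fold of dim genes, and a vehicle mean under 5.29 on this scale, the level of the filter on dim probe sets, is called dim below. Levels of different genes are not compared.

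The arrays differed in overall brightness before normalization, with medians of the deposited intensity between 21.2 and 70.3, and correlations between replicates of a group ranged from 0.934 to 0.984. The array numbers in the labels run from 4 to 21 for vehicle and from 33 to 62 for isoproterenol, so treatment and array number cannot be told apart. Within each treatment the numbers rise with sampling time, so time and array number cannot be told apart either. Markers of cardiomyocytes, checked against the heart label, had summed intensities between 63541 and 78004 over the 30 arrays. These sums, and those given below, are of normalized values taken back to the linear scale. Part of their evenness may come from the normalization. The 3' to 5' log2 difference of the beta-actin control, a sign of RNA integrity, ranged from 0.885 to 1.34 on the isoproterenol arrays at 24 h and from 1.46 to 1.92 on the vehicle arrays of that time. At 72 h the ranges overlapped, 1.12 to 1.63 against 0.969 to 1.98. They also overlapped at 1 h, 1.53 to 1.98 against 1.54 to 1.60, and at 3 h, 1.75 to 2.07 against 0.841 to 1.96. The treated median was higher at 1, 3 and 72 h (1.92, 1.90 and 1.35 against 1.55, 1.03 and 1.08). It was lower at 24 h (1.0 against 1.71), opposite to 3 h. The same difference for the GAPDH control overlapped at 24 h, 0.331 to 0.507 against 0.317 to 0.371. The part of RNA integrity in the results was not tested.

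2 isoproterenol arrays stood apart in the genes described here. Replicate 1 at 72 h was the lowest of its 5 arrays for 31 of the 35 genes, and its median difference from the vehicle mean over the 35 genes was 0.53, against 1.75 to 2.38 on the other 4 arrays. Replicate 3 at 24 h was the lowest of its 4 arrays for 31 of the 35 genes, with a median difference of 0.85 against 1.63 to 2.30. Replicate 1 at 72 h also had the smallest shift of the fibroblast markers in its group (0.62 against 1.08 to 1.37) and the smallest of the erythroid markers (-0.09 against -0.51 to -0.89). Counts are given with and without these arrays.

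The promoters of 24 of the 37 genes were found in the RefSeq table of the GRCr8 build, each as 250 bases before and 50 bases after the gene's start. They are shown because many genes of this group rose together, and because PU.1, the factor encoded by Spi1, is a known regulator of myeloid promoters. The PU.1 letters GAGGAAGT, searched on both strands, occurred in 4 of the 24 promoters (16.7%) and in 810 of all 33469 promoters in the table (2.42%). The C/EBP letters TTGCNNAA occurred in 4 of the 24 (16.7%; Adgre1, Hcls1, Itgam and Lyz2) and in 10.6% of all promoters, and the AP-1 letters TGANTCA in 2 (8.33%; Cd68 and Hcls1) against 7.33%. No match of 1 motif was set against those of another for overlap. The 4 promoters with the PU.1 letters are printed 5′ to 3′ on the gene's strand, upstream of the start only, with the matched letters in capitals, ACTTCCTC being the same letters read from the other strand. They lie at chr1:104860816-104860903 on the minus strand (Cd37), chr2:197087897-197087982 on the minus strand (Cd53), chr9:2248863-2248950 on the plus strand (Vav1) and chr13:85782540-85782627 on the plus strand (Fcgr3a).
Cd37: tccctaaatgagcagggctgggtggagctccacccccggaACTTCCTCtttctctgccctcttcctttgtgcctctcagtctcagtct
Cd53: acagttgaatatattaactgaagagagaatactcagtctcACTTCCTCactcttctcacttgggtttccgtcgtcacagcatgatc
Vav1: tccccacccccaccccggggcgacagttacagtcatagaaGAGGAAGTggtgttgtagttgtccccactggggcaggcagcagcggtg
Fcgr3a: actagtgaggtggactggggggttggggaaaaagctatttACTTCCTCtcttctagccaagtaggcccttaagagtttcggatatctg
The matches begin 79, 46, 52 and 56 bases before the start of Cd37, Cd53, Vav1 and Fcgr3a. A match is a description of the letters and not evidence of binding. At 24 h these 4 genes changed by 1.37, 2.26, 0.58 and 0.65, of which Vav1 and Fcgr3a did not pass. At 72 h they changed by 1.42, 2.04, 1.0 and 1.87 and passed, as did 29 of all 35 genes tested.

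Most of the macrophage and leukocyte genes were higher with isoproterenol at 24 and 72 h and few had moved at 1 and 3 h. At 1 h, 1 of the 35 (Cd14) was higher and 0 were lower, where 1.83% of all probe sets were higher and 0.815% lower. At 3 h, 3 were higher (Cd14, Tlr2 and Mrc1) and 0 lower, against 6.10% and 5.28% of all probe sets. At 24 h, 25 were higher and 0 lower, against 7.34% and 5.71%, and at 72 h 29 were higher and 0 lower, against 9.37% and 8.46%. At an unadjusted p under 0.05, limma placed 1, 4, 0 and 0 of the 35 lower at the 4 times. The 25 genes that rose by 24 h were all among the 29 at 72 h. The other 4 at 72 h were Adgre1, Ms4a7, Fcgr3a and Vav1. Cd163, Lyn, Lst1, Arhgdib, Cd48 and Cd52 passed at none of the 4 times. The median change of the 35 was -0.02, -0.10, 1.61 and 1.84 at 1, 3, 24 and 72 h, and that of all probe sets -0.03, -0.05, -0.02 and -0.04. Without replicate 3 of the 24 h isoproterenol arrays 28 genes passed (Vav1, Lst1 and Arhgdib added) with a median of 1.90, and without replicate 1 of the 72 h arrays 31 passed (Cd163 and Arhgdib added) with a median of 2.12. Over all probe sets the split of calls moved with the normalization: 1782 were higher and 1387 lower at 24 h, against 3078 and 17 without normalization and 1670 and 771 with median centring, and 2277 and 2056 at 72 h, against 2351 and 29 and 2352 and 709. The 35 genes gave 29 and 30 higher at 24 and 72 h without normalization, 25 and 29 with median centring, and 0 lower under either. Neither array's removal moved any of the 35 folds by more than 1.5 times.

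**Figure D1:**
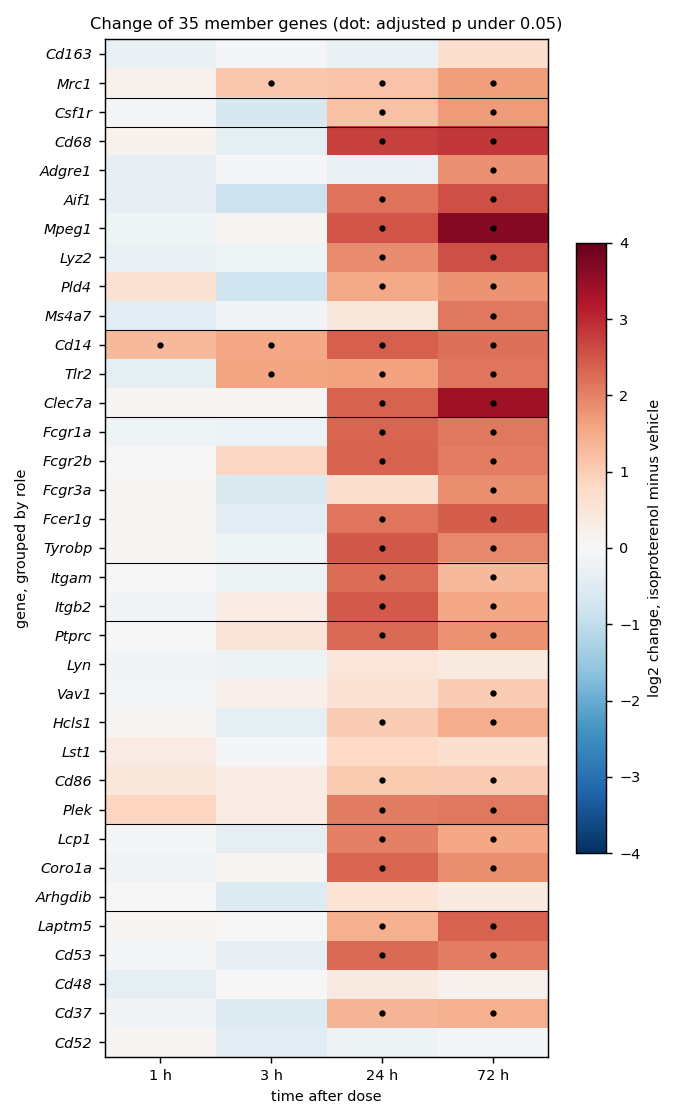
Change of each of the 35 genes at 1, 3, 24 and 72 h (log2, isoproterenol minus vehicle, colour scale from -4 to 4), in groups by role separated by lines, with a dot where the adjusted p from limma was under 0.05. The 1 h column has 1 dot and the 3 h column 3, against 25 at 24 h and 29 at 72 h.

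All isoproterenol arrays lay above all vehicle arrays for 2 genes at 1 h (Cd14 and Plek; 6.49% of all probe sets did so), 4 at 3 h (Mrc1, Cd14, Tlr2 and Fcgr2b; 8.50%), 25 at 24 h (10.6%) and 22 at 72 h (8.63%). They lay below all vehicle arrays for 2 at 1 h (Cd163 and Adgre1; 7.67%), 5 at 3 h (Csf1r, Aif1, Fcer1g, Lcp1 and Arhgdib; 9.0%) and 0 at 24 and 72 h (11.2% and 8.15%). The 5 genes that lay below at 3 h had changes of -0.37 to -0.85, and none passed (adjusted p 0.108 to 0.520). With 1 array left out, 1 gene passed as lower at 3 h in 3 of the 30 fits: the Pld4 change at 3 h was -1.19 without replicate 3 of the 3 h vehicle arrays, the Arhgdib change at 3 h was -0.53 without replicate 2 of the 24 h isoproterenol arrays, and the Csf1r change at 3 h was -0.65 without replicate 1 of the 72 h isoproterenol arrays. The sum of the 35 intensities was 3596 to 5446 over all 12 vehicle arrays, 3346 to 4422 over the isoproterenol arrays at 1 and 3 h, 8211 to 24393 at 24 h and 5936 to 22996 at 72 h. Among the 4 vehicle groups 0 of 35 genes passed limma's moderated F-test (1 at an unadjusted p under 0.05), where 0.0988% of all probe sets did.

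Of the resident pair, Mrc1 rose from 3 h on and Cd163 passed at no time. The name follows the choice of genes, and which cells their RNA came from was not tested. Mrc1 (probe set 1392648_at), the mannose receptor, measured 7.23, 7.13 and 7.64 on the vehicle arrays at 3 h and 8.21, 8.33, 8.36 and 8.71 on the isoproterenol arrays. Every treated array lay above every vehicle array, a change of 1.07 (SE 0.25, a 2.10-fold level, adjusted p = 0.0035). At 24 h it measured 7.73, 7.97 and 7.31 with vehicle and 9.05, 8.51, 8.53 and 9.12 with isoproterenol, again without overlap, a change of 1.13 (SE 0.25, adjusted p = 0.00233). At 72 h the vehicle arrays read 7.03, 7.92 and 7.06 and the isoproterenol arrays 8.06, 9.24, 9.40, 9.11 and 9.25. The groups stayed apart although replicate 1 of the treated arrays lay close to the highest vehicle array, and the change was 1.67 (SE 0.24, 3.19-fold, adjusted p = 1.39e-05). Mrc1 changed by 0.18 at 1 h (adjusted p = 0.837). The 3 h call was lost without normalization between arrays (adjusted p = 0.268).

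Cd163 (probe set 1393917_at), the scavenger receptor for haemoglobin bound to haptoglobin, measured 5.57, 6.24 and 6.30 on the vehicle arrays at 24 h and 5.66, 5.65, 6.28 and 5.50 with isoproterenol. The groups overlapped, and the change was -0.26 (SE 0.25, adjusted p = 0.58). At 72 h it measured 5.30, 6.43 and 5.42 with vehicle and 6.28, 6.27, 5.97, 6.68 and 6.75 with isoproterenol. The vehicle arrays were spread over more than the treated ones, with replicate 2 above 3 of the 5 treated arrays, and the change of 0.67 (SE 0.24, 1.60-fold) did not pass (adjusted p = 0.0523). It passed under 10 of 42 other settings, with adjusted p from 0.000323 to 0.31 over the 42. Among the 10 were median centring, no normalization and the fit without replicate 2 of the 72 h vehicle arrays, the one that read 6.43. The fit without replicate 1 of the treated arrays was another, with a Cd163 change of 0.70 (adjusted p = 0.0471). At 1 h its 5 treated arrays, 5.82 to 6.35, lay below the 3 vehicle arrays, 6.38 to 6.51, a change of -0.26 that did not pass (adjusted p = 0.745). At 3 h the change was -0.04.

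**Figure D2:**
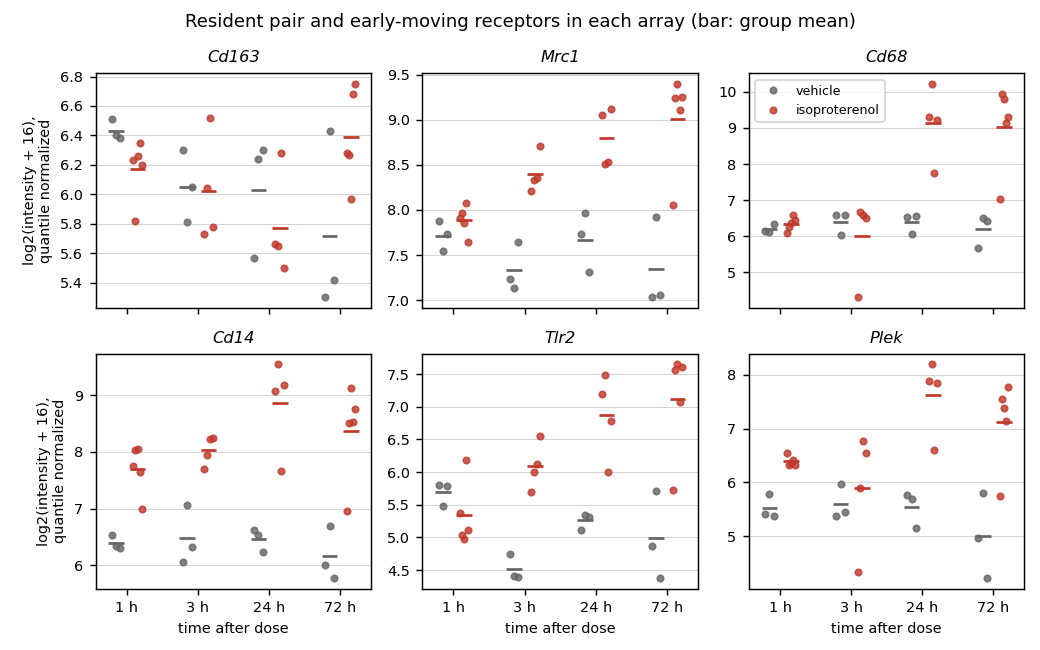
Level of Cd163, Mrc1, Cd68, Cd14, Tlr2 and Plek on each array (log2(intensity + 16), quantile normalized) by time, vehicle in grey and isoproterenol in red, with a bar at each group mean. Mrc1, Cd14 and Tlr2 are above vehicle at 3 h, Cd68 lies above vehicle only at 24 and 72 h, and the Cd163 groups overlap at 3, 24 and 72 h.

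The change of each resident gene was also set against that of Cd68, a lysosomal glycoprotein of macrophages, as a difference of changes on the same arrays. Cd163 changed by 3.00 less than Cd68 at 24 h (difference -3.00, SE 0.66, adjusted p = 1.87e-05) and by 2.16 less at 72 h (-2.16, SE 0.63, adjusted p = 0.000632). Mrc1 changed by 1.61 less at 24 h (-1.61, SE 0.65, adjusted p = 0.013), and its difference of -1.16 at 72 h (SE 0.62) did not pass (adjusted p = 0.061). The 24 h call for Mrc1 was lost without replicate 2 of the 24 h vehicle arrays (-1.30) and without replicate 2 of the 24 h treated arrays (-1.14), and the 72 h difference passed without replicate 1 of the 72 h treated arrays (-1.42). Because Cd68 itself rose, 98.8% of all probe sets passed this test at 24 h and 98.6% at 72 h. A pass is therefore the background here, and only the sizes describe the pair. Sizes like that of Cd163 also occurred in other genes. At 24 h Adgre1 differed by -3.04 and Cd52 by -2.95. At 72 h Cd52 (-2.87), Cd48 (-2.65), Lyn (-2.48), Arhgdib (-2.47) and Lst1 (-2.18) differed by more than Cd163. The remaining genes differed by less than Cd163 at each time. Of the 34 genes other than Cd68, 16 passed with a smaller change than Cd68 at 24 h and 13 at 72 h, and 0 passed with a larger one. Cd68 had the largest change of the 35 genes at 24 h (2.74), so 0 larger at that time followed from the choice of reference. With Ptprc and Itgb2 as references, 4 and 7 genes passed with a larger change at 72 h and 6 and 6 with a smaller one. At 24 h these references gave 0 larger, and 15 and 18 smaller. At 72 h Mpeg1 and Clec7a differed from Cd68 by 0.81 and 0.56, which did not pass (adjusted p = 0.189 and 0.37). On the arrays, the log2 difference of Cd163 from Cd68 was -0.97 to 0.17 with vehicle at 24 h and -4.58 to -1.48 with isoproterenol, without overlap, and -1.0 to -0.09 against -3.82 to -0.75 at 72 h, with overlap. With Ptprc or Itgb2 as the reference, Cd163 differed by -2.53 and -2.71 at 24 h and by -1.12 and -0.88 at 72 h (adjusted p 1.1e-06, 1.46e-08, 0.0144 and 0.0384), where 98.7%, 99.2%, 95.4% and 93.4% of all probe sets passed. Mrc1 differed from the same references by -1.14 and -1.32 at 24 h (adjusted p = 0.00651 and 0.00111) and by -0.12 and 0.12 at 72 h (0.763 and 0.752). The difference between Cd163 and Mrc1 themselves was not tested.

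Deviations of the genes from their group means were set against each other over the 30 arrays in 8 groups. The median correlation over 595 pairs of the 35 genes was 0.601, ranging from -0.531 to 0.953. For Cd163 against the 34 others the median was -0.132 and for Cd52 -0.124, while for Mrc1 it was 0.565 and for Csf1r 0.735. The points of all pairs share the same arrays and their normalization. They include replicate 1 at 72 h and replicate 3 at 24 h with isoproterenol, each the lowest of its group for 31 of the 35 genes. The part of these arrays in the correlations was not tested, and other probe sets were not correlated in this way.

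Csf1r, the receptor for the macrophage growth factors CSF-1 and IL-34, measured 7.76, 7.86 and 7.79 with vehicle at 24 h and 9.18, 9.42, 8.15 and 9.17 with isoproterenol. The groups did not overlap, with treated replicate 3 the lowest, and the change was 1.18 (SE 0.28, 2.26-fold, adjusted p = 0.00445). Its 72 h values were 7.46, 7.77 and 7.86 against 8.22, 9.93, 10.01, 9.25 and 9.64, a change of 1.71 (SE 0.27, adjusted p = 4.2e-05). At 3 h the 4 treated arrays, 6.95 to 7.22, lay below the vehicle arrays, 7.66 to 7.81, and the change of -0.65 did not pass (adjusted p = 0.133). It passed with trimmed mean scaling and without replicate 1 of the 72 h isoproterenol arrays.

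Of the macrophage surface and lysosome markers, 5 of 7 were higher at 24 h (median change 1.90) and 7 of 7 at 72 h (median 2.58). Cd68 measured 6.54, 6.07 and 6.55 with vehicle at 24 h and 9.30, 10.22, 7.76 and 9.21 with isoproterenol, a change of 2.74 (SE 0.52, 6.68-fold, adjusted p = 0.000655). Its 72 h values were 5.67, 6.51 and 6.42 against 7.04, 9.93, 9.79, 9.13 and 9.31, a change of 2.83 (SE 0.49, 7.13-fold, adjusted p = 0.000171). All treated arrays lay above vehicle at both times, replicate 1 at 72 h closest to it. Mpeg1, which encodes the pore-forming perforin-2 of phagocytes, had the largest change of the 35 genes at 72 h. It measured 6.95, 7.27 and 6.58 with vehicle and 8.25, 11.49, 11.31, 10.60 and 11.26 with isoproterenol, without overlap, a change of 3.65 (SE 0.42, 12.5-fold, adjusted p = 1.32e-06). At 24 h its change was 2.52 (SE 0.43, adjusted p = 0.000267).

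Lyz2, the lysozyme of macrophages and neutrophils, changed by 1.90 at 24 h (SE 0.29, adjusted p = 7.48e-05) and 2.59 at 72 h (SE 0.28, adjusted p = 9.34e-07). On its 72 h arrays 4 treated replicates lay between 12.21 and 12.29 and replicate 1 at 10.53, all above the vehicle range of 9.15 to 9.45. Aif1, the calcium-binding protein Iba1, changed by 2.16 and 2.58 (4.48-fold and 5.96-fold), and Pld4, an endolysosomal exonuclease, by 1.5 and 1.81. For Pld4 the 24 h call was lost without replicate 2 of the 24 h vehicle arrays (adjusted p = 0.0689), and its vehicle mean was dim at 24 h (5.18).

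Adgre1 and Ms4a7 passed at 72 h and did not at 24 h. The 72 h minus 24 h difference itself passed for Adgre1 (2.13, SE 0.43, adjusted p = 0.00679) and did not for Ms4a7 (1.64, SE 0.60, adjusted p = 0.174). Adgre1, the adhesion receptor known as F4/80, measured 6.51, 5.81 and 5.59 with vehicle at 24 h and 5.68, 5.72, 5.63 and 5.66 with isoproterenol, inside the vehicle range. At 72 h it measured 5.31, 6.0 and 5.41 with vehicle and 5.99, 8.09, 8.05, 7.15 and 7.75 with isoproterenol. 4 treated arrays lay above every vehicle array and replicate 1 just below the highest, and the change was 1.84 (SE 0.30, 3.57-fold, adjusted p = 7.3e-05). Ms4a7, a membrane protein of macrophages, was dim in vehicle. It measured 5.19, 5.34 and 4.18 with vehicle at 72 h and 5.08, 7.70, 8.0, 6.85 and 7.36 with isoproterenol, a change of 2.10 (SE 0.42, adjusted p = 0.000696) against 0.46 at 24 h (adjusted p = 0.571).

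**Figure D3:**
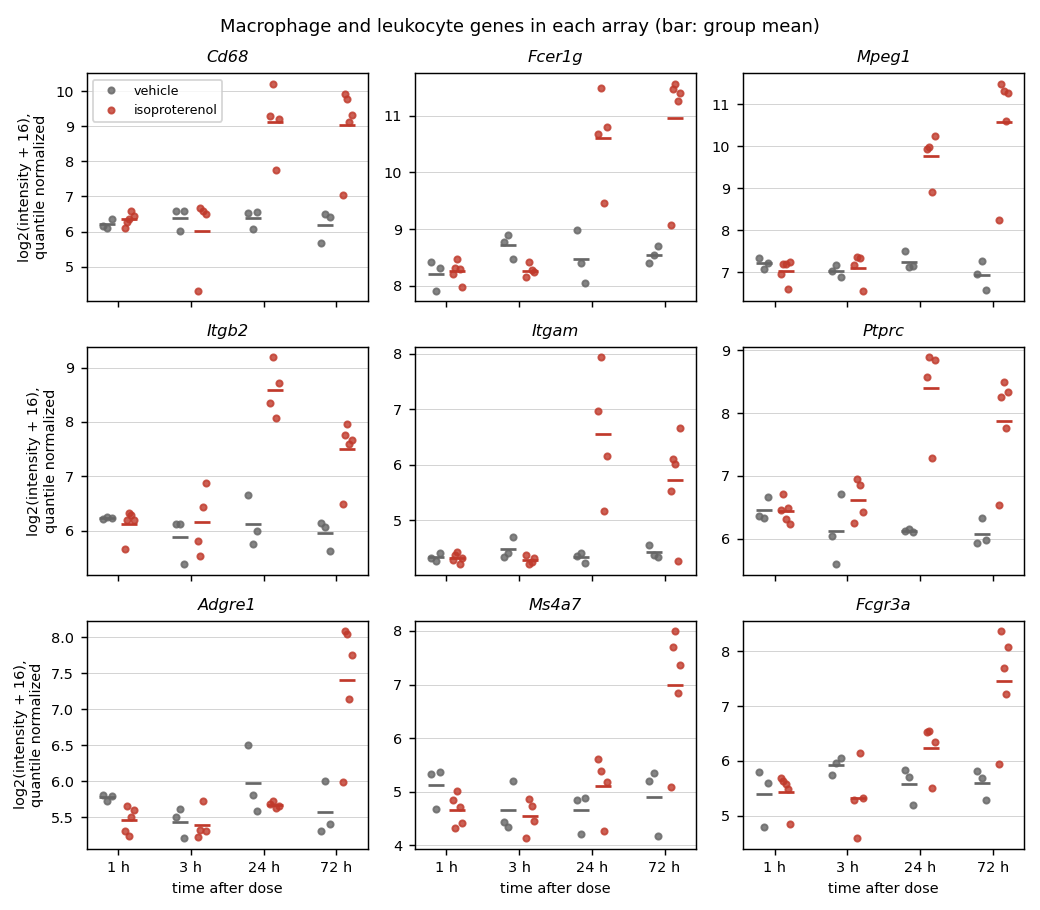
Level of 9 genes on each array (log2(intensity + 16), quantile normalized) by time, vehicle in grey and isoproterenol in red, with a bar at each group mean. In Cd68, Fcer1g, Mpeg1, Itgb2, Itgam and Ptprc the treated arrays are above vehicle at 24 h, and Adgre1, Ms4a7 and Fcgr3a passed at 72 h and did not at 24 h, with replicate 1 at 72 h near vehicle.

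Of the 3 pattern recognition receptors, Cd14 passed from 1 h, Tlr2 from 3 h and Clec7a from 24 h. Cd14, the co-receptor for lipopolysaccharide, measured 6.54, 6.35 and 6.31 with vehicle at 1 h and 7.75, 8.03, 8.05, 7.64 and 6.99 with isoproterenol, without overlap. The change of 1.29 (SE 0.36, 2.45-fold) passed narrowly (adjusted p = 0.0448), and the call was lost under 24 of 42 other settings, 17 of them fits without 1 array (each 1 h vehicle array and treated replicates 1 to 4 at 1 h among them), with adjusted p from 0.000477 to 0.508. At 3 h its change was 1.54 (SE 0.38, adjusted p = 0.00608), a call lost without normalization and without replicate 1 of the 3 h vehicle arrays. Cd14 changed by 2.39 at 24 h (SE 0.38, 5.26-fold, adjusted p = 9.45e-05), and by 2.21 at 72 h (SE 0.36, adjusted p = 7.77e-05). The difference of its effect between 1 and 3 h did not pass.

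Tlr2, a receptor for bacterial lipoproteins, measured 4.74, 4.41 and 4.39 with vehicle at 3 h, where it was dim, and 5.69, 6.0, 6.13 and 6.55 with isoproterenol. The groups were apart, and the change was 1.58 (SE 0.37, 2.99-fold, adjusted p = 0.00443), lost without normalization (adjusted p = 0.0829). The vehicle arrays at 1 h were higher, 5.48 to 5.81, and the change at 1 h was -0.36 (adjusted p = 0.762). Tlr2 changed by 1.61 at 24 h and 2.13 at 72 h (adjusted p = 0.00394 and 0.000103). Its vehicle means were dim at these times too (5.26 and 4.99). Clec7a, the beta-glucan receptor dectin-1, changed by 0.05 and 0.04 at 1 and 3 h. It was dim in vehicle at 72 h (mean 4.68), where its change ranged from 2.16 to 4.78 over 42 other settings. At 72 h it measured 5.30, 4.40 and 4.33 with vehicle and 6.04, 8.51, 8.93, 8.59 and 8.31 with isoproterenol, without overlap, a change of 3.40 (SE 0.40, 10.5-fold, adjusted p = 1.86e-06), after 2.37 at 24 h (SE 0.42, adjusted p = 0.000309).

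Of the Fc receptors and their ITAM adaptors, 4 of 5 were higher at 24 h (median change 2.32) and 5 of 5 at 72 h (median 2.05). Fcer1g, the shared signalling gamma chain, measured 8.99, 8.40 and 8.04 with vehicle at 24 h and 10.68, 11.49, 9.46 and 10.80 with isoproterenol, a change of 2.13 (SE 0.39, 4.37-fold, adjusted p = 0.00048). Its 72 h values were 8.40, 8.55 and 8.70 against 9.07, 11.48, 11.57, 11.27 and 11.40, a change of 2.41 (SE 0.37, adjusted p = 3.99e-05). The treated arrays lay above vehicle at both times, with the same single array low in each group as for the other genes. Tyrobp, the adaptor DAP12, had 1 treated array far above the rest at 24 h: 8.86, 11.06, 7.28 and 8.47 against 6.86, 6.26 and 6.20 with vehicle. Its change was 2.48 at 24 h (SE 0.49, adjusted p = 0.00107), or 1.76 without that array, and 1.91 at 72 h (SE 0.47, adjusted p = 0.00485).

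Fcgr1a, the high-affinity receptor for immunoglobulin G, changed by 2.32 and 2.12 at 24 and 72 h. Fcgr2b, the inhibitory receptor, was dim in vehicle, with means of 4.65 to 4.91 over the 4 vehicle groups, and changed by 2.36 (SE 0.34, adjusted p = 3.9e-05) and 2.05 (SE 0.33, adjusted p = 6.29e-05). Fcgr3a, an activating receptor, measured 6.53, 6.55, 5.50 and 6.34 with isoproterenol at 24 h against 5.84, 5.71 and 5.19, a change of 0.65 that did not pass (adjusted p = 0.311). Its 72 h values were 5.94, 8.37, 7.70, 7.22 and 8.08 against 5.82, 5.69 and 5.28, apart from vehicle, a change of 1.87 (SE 0.37, 3.65-fold, adjusted p = 0.000712). The Fc gamma receptor genes resemble each other in sequence, and whether their probe sets take up each other's RNA was not tested.

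Both leukocyte integrins were higher at 24 and 72 h. Itgb2, the beta chain shared by these integrins, measured 6.65, 5.75 and 6.0 with vehicle at 24 h and 8.35, 9.19, 8.07 and 8.72 with isoproterenol, without overlap, a change of 2.45 (SE 0.31, 5.45-fold, adjusted p = 6.79e-06). At 72 h its change was 1.55 (SE 0.30, 2.93-fold, adjusted p = 0.000495). Itgam, the alpha chain CD11b, was dim on every vehicle array, between 4.22 and 4.69 over the 4 times. Its isoproterenol means were also under the filter level at 1 and 3 h (4.32 and 4.28) and above it at 24 and 72 h (6.55 and 5.72). It may therefore have met the filter only through treated arrays of the later times. With no filter, Itgam still passed at 24 and 72 h. It measured 6.97, 7.94, 5.16 and 6.15 with isoproterenol at 24 h, all above vehicle, a change of 2.22 (SE 0.41, 4.66-fold, adjusted p = 0.000559). Its 72 h values were 5.53, 6.11, 6.01, 4.27 and 6.67, with replicate 4 and not replicate 1 below vehicle, and the change of 1.29 (SE 0.39) passed (adjusted p = 0.0203) but was lost under 9 of 42 other settings, among them each of the 3 fits without a 72 h vehicle array, those without treated replicates 2, 3 or 5, and median centring. The 72 h minus 24 h differences of Itgam and Itgb2, -0.93 and -0.90, did not pass.

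Among the signalling and costimulation genes 4 of 7 were higher at 24 h and 5 of 7 at 72 h. Ptprc, the leukocyte phosphatase CD45, measured 6.13, 6.16 and 6.10 with vehicle at 24 h and 8.58, 8.89, 7.29 and 8.85 with isoproterenol, a change of 2.27 (SE 0.34, 4.83-fold, adjusted p = 6.22e-05). At 72 h it changed by 1.79 (SE 0.33, adjusted p = 0.000284). Plek, the protein kinase C substrate pleckstrin, changed by 2.09 and 2.12 at 24 and 72 h (adjusted p = 0.00179 and 0.00071). At 1 h its 5 treated arrays, 6.32 to 6.55, lay above the vehicle range of 5.38 to 5.79, and the change of 0.87 did not pass (adjusted p = 0.398), though it did with only the 1 h arrays in the fit (adjusted p = 0.00611). Hcls1, a cortactin-like substrate of Src kinases, changed by 1.01 and 1.45, and the costimulatory ligand Cd86 by 1.04 and 1.02. The 24 h calls of Hcls1 and Cd86 were lost without replicate 3 of the 24 h vehicle arrays and without replicate 2 of the 24 h isoproterenol arrays, that of Hcls1 also without vehicle replicate 2 and without treated replicate 4, and the 72 h call of Cd86 without replicate 1 of the 72 h vehicle arrays. Vav1, a signalling protein of blood cells, changed by 0.58 at 24 h (adjusted p = 0.134) and 1.0 at 72 h (SE 0.24, adjusted p = 0.00403). Its vehicle mean was dim at 72 h (4.86). Of the 7 signalling and costimulation genes, 1 had a dim vehicle mean at 24 h and 3 at 72 h. The Src kinase Lyn changed by 0.49 and 0.35 and Lst1, a leukocyte-specific transcript, by 0.81 and 0.65, and neither passed.

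The actin regulators Lcp1 and Coro1a, which encode L-plastin and coronin 1A, were higher at both times. Lcp1 measured 8.63, 8.19 and 8.24 with vehicle at 24 h and 10.45, 10.91, 9.49 and 10.61 with isoproterenol, a change of 2.01 (SE 0.27, 4.04-fold, adjusted p = 1.12e-05), and changed by 1.54 at 72 h (SE 0.26, adjusted p = 9.35e-05). Coro1a changed by 2.34 and 1.85 (adjusted p = 1.35e-05 and 7.73e-05). Arhgdib changed by 0.53 and 0.37 and did not pass at either time. It passed at 24 h without replicate 3 of the treated arrays and at 72 h without replicate 1.

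Of the leukocyte membrane proteins, 3 of 5 were higher at both times. The tetraspanin Cd53 changed by 2.26 and 2.04 (4.80-fold and 4.11-fold, adjusted p = 0.000106 and 0.000116) and the lysosomal protein Laptm5 by 1.43 and 2.37 (adjusted p = 0.0027 and 5.95e-06). The tetraspanin Cd37 changed by 1.37 and 1.42 (adjusted p = 0.0211 and 0.00913), a 24 h call lost without vehicle replicate 3 (4.29, against 5.49 and 5.99 on the other 2), without treated replicate 2 and with only the 24 h arrays in the fit, and a 72 h call lost without replicate 3 of the 72 h vehicle arrays. Cd48, a surface ligand of the SLAM family, changed by 0.36 and 0.19, and Cd52, a small anchored glycoprotein of lymphocytes and monocytes, by -0.21 and -0.03. Neither passed at any time, and Cd52 was dim in all 4 vehicle groups. Of the 5 membrane protein genes, 2 had a dim vehicle mean at 24 h and 1 at 72 h.

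The probe sets of 3 genes gave different calls. The second probe set of Aif1 (1369489_at) changed by -0.06 at 24 h and -0.26 at 72 h, where the one standing for the gene changed by 2.16 and 2.58. The second of Mpeg1 (1369427_at) changed by 0.36 and 0.85 (adjusted p = 0.565 and 0.064), against 2.52 and 3.65, and the second of Cd86 (1387627_at) by 0.80 and 0.63, against 1.04 and 1.02. Both probe sets of Ptprc and of Laptm5 passed at 24 and 72 h, and neither of Lyn did.

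Effects of isoproterenol were also compared between times. The 24 h minus 3 h difference passed for 21 of 35 genes, all in the direction of a higher effect at 24 h, where 3.59% of all probe sets passed in that direction. It passed for 14 without replicate 3 of the 24 h vehicle arrays and for 18 with the replicate number as a block. Lcp1 had the lowest adjusted p (difference 2.38, SE 0.38, adjusted p = 0.000176) and Cd68 differed by 3.12 (SE 0.73, adjusted p = 0.00908). For Cd68, replicate 1 of the 3 h isoproterenol arrays read 4.31 against 6.50 to 6.68 on the other 3, and without it the Cd68 change at 3 h was 0.20 in place of -0.38. For Mrc1, Tlr2 and Cd14, which had passed at 3 h, this difference did not pass. The 3 h minus 1 h difference passed for 0 of 35 genes (3 at an unadjusted p under 0.05, by limma), against 0.580% of all probe sets. The 72 h minus 24 h difference passed for 1, Adgre1 (2.13, SE 0.43, adjusted p = 0.00679), with 1.32% of all probe sets passing in that direction. Without replicate 1 of the 72 h isoproterenol arrays it passed for 7: Adgre1 (2.48), Ms4a7 (2.11), Mpeg1 (1.72), Fcgr3a (1.59), Clec7a (1.53), Laptm5 (1.29) and Lyz2 (1.03). The 24 h minus 3 h difference compares effects with separate control arrays at each time, as does the 72 h minus 24 h difference, but the 24 h arrays enter both.

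Other genes of resident macrophages, 8 of which were tested, were higher in 2, 3 and 4 cases at 3, 24 and 72 h and lower in 2 at 3 h and 1 at 24 h. For this list and those that follow, the share of all probe sets that were higher was 1.83%, 6.10%, 7.34% and 9.37% at the 4 times, and the share lower 0.815%, 5.28%, 5.71% and 8.46%. At 72 h Clec10a changed by 1.80, Folr2 by 1.67, Stab1 by 1.44 and Maf by 1.06, while Lyve1 changed by 0.30 and did not pass. Slco2b1 fell by 1.53 at 3 h and by 0.90 at 24 h (adjusted p = 1.3e-06 and 0.00248). The median change of these 8 was 0.31 at 24 h and 0.70 at 72 h. Among 10 genes of recruited monocytes 6 were higher at 24 h and 5 at 72 h, 2 and 3 were higher at 1 and 3 h, and 1 was lower at 3 h, with medians of 1.53 at 24 h and 0.79 at 72 h. S100a4, a calcium-binding protein, changed by 3.30, Ccr1 by 1.72, Plac8 by 1.71 and Plaur, the urokinase receptor, by 1.66 at 24 h. Ccr2, the chemokine receptor of classical monocytes, changed by 0.61 and did not pass (adjusted p = 0.214), and Ly6c changed by 0.23 at 24 h.

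Among 11 growth factors and lineage regulators, 1, 2, 6 and 5 were higher at the 4 times and 0 lower. At 24 h Irf5 changed by 1.93, Cebpa by 1.92, Runx1 by 1.74 and Cebpb by 1.47, while the Csf1r ligands Csf1 and Il34 changed by 0.26 and -0.03 and did not pass. Of 13 further genes of ITAM and Src family signalling, 10 were higher at 24 h and 12 at 72 h, with 0 called at 1 h and 2 lower at 3 h (Blnk and Lcp2). At 72 h Trem2, a receptor that signals through Tyrobp, changed by 2.33, the phosphatase Ptpn6 by 2.24, the adaptor Fyb1 by 1.84 and Rac2 by 1.52. Plcg2, at 0.57, was the gene that did not pass.

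Counts of markers of other cell types are read against the same shares of all probe sets. Of 5 neutrophil markers, 2, 4, 1 and 0 were higher at the 4 times, and their summed intensity was 132 to 233 with vehicle and 435 to 680 with isoproterenol at 3 h, when Cd14 and Tlr2 were higher. Il1r2 changed by 2.30, S100a9 by 2.06, S100a8 by 1.91 and Lcn2 by 0.96 at that time, and Mmp8 by 0.09. Their part in the 1 h and 3 h changes was not tested. At 72 h their sums were 88 to 130 with isoproterenol and 98 to 189 with vehicle, beside the 29 higher macrophage and leukocyte genes. Of 10 T and NK cell markers, 0 were higher at 24 h and 2 at 72 h (Prf1 at 0.87 and Lck at 0.52), 1 was lower at 1 h and 1 at 3 h, and Cd3e changed by 0.25 at 72 h. Their summed intensity was 255 to 316 with isoproterenol and 273 to 327 with vehicle at 24 h, and 319 to 390 against 248 to 303 at 72 h. Over the 4 times the 2 B cell markers changed by -0.16 to 0.75 and the 6 mast cell markers by -0.93 to 0.36, and none passed.

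Of 5 dendritic cell markers, 2 were higher at 24 h (Itgax at 2.06 and Cd83 at 1.71) and 3 at 72 h, and their sums were 287 to 828 against 107 to 162 at 24 h and 190 to 631 against 95 to 204 at 72 h. At 1 h, when none passed, the dendritic sums were 242 to 286 against 136 to 155, and at 3 h they overlapped. Of 9 fibroblast markers, 7 were higher at 72 h, led by Col1a2 at 2.19 and Col1a1 at 1.82, with 1 lower at 1 h, 1 higher at 3 h and 2 lower at 24 h. Their sums were 26309 to 52468 with isoproterenol and 16352 to 23404 with vehicle at 72 h, and 14223 to 21647 against 16832 to 22730 at 24 h. Of 4 erythroid markers, 3 were lower at 72 h (Slc4a1 at -0.94, Alas2 at -0.76 and Hbb at -0.41), with sums of 3661 to 6104 against 5773 to 6446, and 1 was lower at 3 h and at 24 h. Of 9 cardiomyocyte markers, 2 were lower at 24 h (Ryr2 at -0.52 and Mybpc3 at -0.46), with sums of 63541 to 73330 against 75668 to 78004, and 0 at the other times. Of 8 endothelial markers, 1 was higher at 1 h and 3, 1 and 2 were lower at 3, 24 and 72 h. Their sums were 4195 to 4538 against 4814 to 5499 at 3 h and 3579 to 4220 against 4899 to 5121 at 24 h. The endothelial sums overlapped at 1 and 72 h. Of 4 platelet markers, 1 was higher at 72 h (Pf4 at 1.26). Platelet sums were 288 to 569 against 207 to 209 at 72 h and overlapped at the other times. No marker of these lists was listed at 0 on any array, but only 29 values of the whole table were 0. Some named markers were under the filter and not tested. They were Cxcr2 and Camp (neutrophil), Cd3d and Gzma (T and NK), Cd79b and Ms4a1 (B), Mcpt1 and Fcer1a (mast) and Gp9 (platelet). The part of these cell types in the changes of the 35 genes was not tested.

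**Figure D4:**
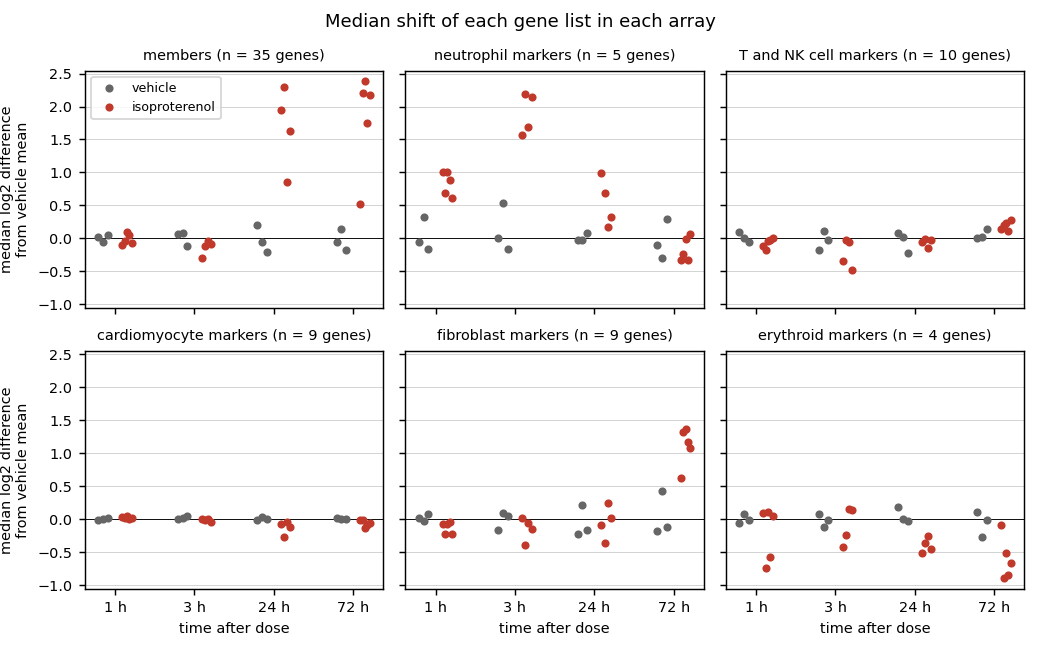
Median log2 difference of each array from the vehicle mean of its time, over the 35 macrophage and leukocyte genes and 5 marker lists, by time, vehicle in grey and isoproterenol in red. The 35 genes shift at 24 and 72 h, the neutrophil markers most at 1 and 3 h and less at 24 h (0.18 to 0.99, against -0.03 to 0.08 with vehicle), and the fibroblast markers at 72 h, with replicate 1 of the 72 h isoproterenol arrays the lowest for the 35 genes (0.53) and the fibroblast markers (0.62).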

How the data were processed

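The deposited values are intensities, 1 per probe set and array, on a linear scale, in a value table of 31099 probe sets and 30 arrays. Per the labels' protocols, RNA was extracted with RNeasy Mini columns from tissue kept in RNAlater and biotinylated cRNA was hybridised. The summarisation and scaling by the authors were not given in the sources used here. From there, 57 control probe sets were left out, log2(intensity + 16) was taken and quantile normalized (array medians spanned 1.21 on that scale), and probe sets reaching an intensity of 23, the 40th percentile, on at least 3 arrays were kept, leaving 24292. limma 3.58.1 in R 4.3.3 was fitted with 8 group means and an intensity trend, with 22 residual degrees of freedom, and p-values were adjusted by Benjamini-Hochberg within each comparison, with a threshold of 0.05. Where a change was set against Cd68, the same model was fitted to differences from Cd68 on each array.

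Probe sets were named through the platform annotation: 20758 through a gene ID, 2 through an accession and 66 as listed, while 436 had several genes and 9780 none listed. The 37 genes and the marker lists were chosen with earlier results of these data known. Every gene of the 37 with a probe set is named. Of each other list, up to 4 genes with the largest change among those that passed at the time given, and up to 2 others, are named. In data simulated for isoproterenol against vehicle at 24 h over 24292 probe sets, the fit recovered 66% of log2 changes of 1 and 97% of changes of 2, with 10 false calls. The simulated noise was normal and independent between probe sets, with 100 changed at each size, against 3169 called in the data. It held no arrays in which many genes shift together, so these rates do not cover such arrays. The number of arrays limits the precision. Alternatives covered normalization, pseudocount, filter, variance model, array weights, the arrays in the fit, the probe set rule, the reference gene, a replicate block and each array left out.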

Additional observations from a re-analysis of the deposited data

Results flagged for a closer look

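Among 140 groups of 4 or 5 arrays, 18 had an array far from the others by Dixon's test at 95%, where chance gives about 1 in 20 groups (5%). Of these, 13 concern replicate 1 of the 72 h isoproterenol arrays, which was the lowest: Mrc1 at 8.06 (others 9.11 to 9.40), Cd68 at 7.04 (9.13 to 9.93), Aif1 at 6.92 (8.76 to 9.27), Mpeg1 at 8.25 (10.60 to 11.49), Lyz2 at 10.53 (12.21 to 12.29), Cd14 at 6.95 (8.50 to 9.12), Clec7a at 6.04 (8.31 to 8.93), Fcer1g at 9.07 (11.27 to 11.57), Tyrobp at 6.71 (8.38 to 8.75), Itgb2 at 6.50 (7.60 to 7.97), Hcls1 at 6.37 (7.82 to 8.29), Laptm5 at 7.13 (8.72 to 9.35) and Cd53 at 7.22 (9.13 to 9.39). The genes share that array, so these are not separate observations. The other 5 were also the lowest of their groups. With isoproterenol at 3 h, replicate 1 read 4.31 for Cd68 (others 6.50 to 6.68) and 5.73 for Fcgr1a (6.15 to 6.17). With isoproterenol at 24 h, replicate 3 read 6.19 for Pld4 (6.82 to 6.88). With isoproterenol at 1 h, replicate 5 read 4.84 for Fcgr3a (5.48 to 5.69) and replicate 1 read 5.66 for Itgb2 (6.19 to 6.33).

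The effect of isoproterenol differed between times by limma's test of the difference, adjusted over all probe sets, for the following genes. From 3 to 24 h it grew by 1.83 for Csf1r, 3.12 for Cd68, 3.01 for Aif1, 2.44 for Mpeg1, 2.06 for Lyz2, 2.28 for Pld4, 2.34 for Clec7a, 2.57 for Fcgr1a, 1.55 for Fcgr2b, 2.58 for Fcer1g, 2.64 for Tyrobp, 2.41 for Itgam, 2.16 for Itgb2, 1.77 for Ptprc, 1.37 for Hcls1, 2.38 for Lcp1, 2.28 for Coro1a, 1.06 for Arhgdib, 1.44 for Laptm5, 2.59 for Cd53 and 1.88 for Cd37. The adjusted p ranged from 0.000176 (Lcp1) to 0.0487 (Fcgr2b). Arhgdib is among these 21 genes although it passed at neither 3 nor 24 h. From 24 to 72 h the effect on Adgre1 grew by 2.13 (adjusted p = 0.00679).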

How the results depend on the processing

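The counts of 25 higher genes at 24 h and 29 at 72 h stayed within 1.5 times of themselves under each of 13 alternatives, and leaving out each of the 30 arrays gave 22 to 28 and 27 to 31. No result changed sign past the threshold. Of the 25 gene calls at 24 h, 21 held under all 42 settings, as did 26 of the 29 at 72 h, and none of the 1 at 1 h and 3 at 3 h. Without normalization the median of all probe sets shifted to -0.23, -0.19, 0.47 and 0.36 at 1, 3, 24 and 72 h, and that of the 35 genes to -0.28, -0.24, 2.25 and 2.19, which is 1.78 and 1.83 above all probe sets at 24 and 72 h.

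At 1 h the count of 1 higher gene became 0 without normalization, with median centring, no filter, robust variance, a pseudocount of 64 or no intensity trend, 2 where the fit held only the arrays compared, and 0 to 1 with an array left out. At 3 h the 3 higher genes became 0 without normalization, and the 0 lower genes became 1 with trimmed mean scaling and 0 to 1 with an array left out. The 0 genes differing between 3 and 1 h became 1 with a pseudocount of 1, only the arrays compared or array weights, and 0 to 1 with an array left out. The 21 differing between 24 and 3 h ranged from 14 to 22 with an array left out. The 1 differing between 72 and 24 h became 0 without normalization or with only the arrays compared, 4 with array weights, and 1 to 7 with an array left out (7 without replicate 1 of the 72 h isoproterenol arrays, 2 without replicate 2 of the 72 h vehicle arrays). With array weights 1 gene differed among the vehicle groups, against 0. Mrc1 relative to Cd68 ranged from -1.97 to -1.14 at 24 h and from -1.42 to -1.0 at 72 h with an array left out. Its 24 h call was lost in 2 of these 30 fits and its 72 h value passed in 3. With array weights the 72 h value, -1.02, passed.

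Probe sets called at 1 h were 643, but 190 without normalization, 1317 with only the arrays compared, 1699 with array weights and 393 to 696 with an array left out. At 3 h they were 2764, but 478 without normalization and 1332 with only the arrays compared. At 24 h they were 3169, but 2103 with only the arrays compared, 5249 with array weights and 1584 to 4415 with an array left out. At 72 h they were 4333, but 2380 without normalization, 2398 with only the arrays compared, 7200 with array weights and 2418 to 5650 with an array left out. The lowest counts came without vehicle replicate 3 at 1 and 72 h and isoproterenol replicate 2 at 24 h. Counts also fell by more than 1.5 times without vehicle replicate 1 at 1 and 72 h (412 and 2428), vehicle replicates 2 and 3 and isoproterenol replicate 4 at 24 h (2085, 1856 and 2092) and isoproterenol replicate 3 at 72 h (2820). Fits of only the arrays compared hold fewer arrays, and gave more calls at 1 h and fewer at 3, 24 and 72 h. The cause of these differences was not tested.

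Replicate numbers are shared by the groups in the labels, but deviations of same-numbered arrays correlated between -0.0739 and 0.125, so the numbers were not taken as pairs. With the replicate number as a block, 0, 3, 25 and 29 genes were higher at the 4 times, and 542, 2425, 2623 and 3611 probe sets were called.

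Dim genes limit what can be seen: 8 of the 35 had a dim vehicle mean at 24 h and 9 at 72 h, where the fold depends on the pseudocount. With a pseudocount of 1 the median change at 72 h was 2.20, and with 64 it was 1.25. Dim genes may also have met the filter through treated arrays where they were high. With no filter, 25 and 29 of the 35 genes were higher at 24 and 72 h.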
